A study of Mus musculus with 18 samples.

Results

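Ciliated airway cell genes are the genes that build and run the motile cilia of the multiciliated cells lining the bronchi and bronchioles. A list of 35 of them was followed in whole mouse lung. Each was read through probe sets that name it alone, a probe set being the group of short probes that reports 1 transcript on the array. Of the 35, 34 had such a probe set, with 55 probe sets in all, and no probe set named Sntn, which encodes a protein of the ciliary tip. Dim probe sets, those exceeding the overall median signal in fewer than 3 of 18 arrays, were set aside; 36 probe sets of 32 members remained, among 12408 genes tested. Spag17, of the central pair, and Stoml3, a membrane protein, did not reach the overall median in any array and were not tested. Dnai1 and Dnai2 carry their older symbols Dnaic1 and Dnaic2 in the platform annotation.

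Lungs of 3 inbred strains were compared with and without thoracic irradiation, on 3 arrays for each of 6 groups. The strains were A/J, C3H/HeJ and C57BL/6J, the last spelled C57BL6/J in the labels. Mice aged 8 weeks were exposed over the whole thorax to 18 Gy of caesium radiation, with the remaining body behind lead, and were killed once they were moribund. At that point A/J mice were 30 to 32 weeks of age, C57BL/6J mice 28 to 30 and C3H/HeJ mice 20 to 22, while the untreated mice were 15 to 26 weeks of age whatever their strain. Where 3 values are given for the 3 strains in turn, they are for A/J, then C57BL/6J, then C3H/HeJ. Age, the moribund state and radiation therefore cannot be told apart between the groups. RNA came from the whole right lung, in which fewer ciliated cells cannot be told apart from less RNA in each cell. For the irradiated groups the labels name 3 mice a strain, whereas for the controls they name 3 samples without saying that each was a separate animal, so p-values measure the spread between these samples.

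A motile cilium is built around an axoneme of doublet microtubules surrounding a central pair. Outer and inner dynein arms drive the bending, radial spokes and nexin links regulate it, and intraflagellar transport carries the parts to the tip. The transcription factor FOXJ1, together with RFX factors that bind X-box sequences, switches on most of these genes in multiciliated cells, whose beating moves mucus and inhaled particles out of the airways. Many components are unique to motile cilia, while the transport proteins also serve the primary cilium that most lung cells carry.

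Promoter sequences were taken from RefSeq (build GRCm38.p6), which held windows for 30 of the 35 genes. None was at hand for Foxj1, Rsph1, Rsph4a, Nme5 or Tppp3. Dynlrb2 and Enkur are shown because they had the highest median correlation with the other members over all 18 arrays, Lrrc23 because it fell in C3H/HeJ, Hydin because it differed between untreated strains, and Rfx2 because it encodes an RFX factor. Each line gives the 250 bases before the annotated start, 5′ to 3′ on the gene's strand, with capitals marking matches to the RFX core GTTGCC on either strand or to a longer X-box pattern of GTNNCC, 3 bases of any kind and GNAAC, where N is any base.
Dynlrb2, chr8:116504765-116505014, plus strand: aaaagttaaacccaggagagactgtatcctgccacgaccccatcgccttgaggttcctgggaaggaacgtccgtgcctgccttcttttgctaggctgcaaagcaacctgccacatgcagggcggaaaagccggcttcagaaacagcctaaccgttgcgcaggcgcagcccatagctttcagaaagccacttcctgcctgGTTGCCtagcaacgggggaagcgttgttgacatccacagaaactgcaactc
Enkur, chr2:21205366-21205615, minus strand: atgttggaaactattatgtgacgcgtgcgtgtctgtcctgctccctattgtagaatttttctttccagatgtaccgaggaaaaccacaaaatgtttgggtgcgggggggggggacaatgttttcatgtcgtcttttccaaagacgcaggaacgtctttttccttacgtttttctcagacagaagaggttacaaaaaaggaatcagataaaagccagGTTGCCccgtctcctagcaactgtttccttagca
Lrrc23, chr6:124779728-124779977, minus strand: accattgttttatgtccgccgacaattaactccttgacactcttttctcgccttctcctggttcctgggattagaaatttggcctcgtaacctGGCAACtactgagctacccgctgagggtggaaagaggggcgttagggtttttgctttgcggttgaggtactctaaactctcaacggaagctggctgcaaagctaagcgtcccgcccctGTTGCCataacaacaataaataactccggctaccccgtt
Hydin, chr8:110266727-110266976, plus strand: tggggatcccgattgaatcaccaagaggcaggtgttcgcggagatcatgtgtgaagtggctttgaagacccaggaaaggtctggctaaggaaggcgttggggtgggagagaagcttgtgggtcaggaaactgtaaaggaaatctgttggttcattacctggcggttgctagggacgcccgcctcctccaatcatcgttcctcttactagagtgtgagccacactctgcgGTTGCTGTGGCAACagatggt
Rfx2, chr17:56831009-56831258, minus strand: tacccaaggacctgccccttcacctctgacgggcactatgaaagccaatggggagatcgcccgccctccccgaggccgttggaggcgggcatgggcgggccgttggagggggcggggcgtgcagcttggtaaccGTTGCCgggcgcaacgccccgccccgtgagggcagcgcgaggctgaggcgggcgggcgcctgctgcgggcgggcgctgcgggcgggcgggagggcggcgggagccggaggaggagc
The RFX core began 51 bases before the start in Dynlrb2 and 34 bases before it in Enkur. In Lrrc23 it occurred 157 and 39 bases before the start, on opposite strands, and in Rfx2 116 bases before it. In Hydin the capitals mark 1 X-box match that began 21 bases before the start and contains the core. Both were read on the strand opposite to the gene's. Every sequence shown holds a match. The windows of Dnah9, which rose in A/J, and Dnali1, which fell in C3H/HeJ, held neither pattern and are not shown.

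Over all members, 15 of 34 promoter windows (44.1%) held the RFX core on either strand, in 14 of 30 genes, against 10.4% of 32851 windows of the same length in the RefSeq table. The X-box pattern, which can overlap the core, was found in 4 of the 34 windows (11.8%) against 1.80% of all windows. Only the spacing given above was searched, so matches at other spacings were not counted. A forkhead core, TGTTTAC, of the kind FOXJ1 binds, was found in 3 of the 34 (8.82%) against 3.17%. These are matches of letters in a short window and no measure of binding.

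Several arrays stood apart and bear on what follows. The first irradiated A/J array was the brightest of the 18, with a median deposited signal of 39.7 against 14.8 to 35 in the others. RNA integrity, read as the ratio of the 5′ to the 3′ probe set of actin, was 0.497 ± 0.074 (SD, n = 3) in irradiated A/J against 0.735 ± 0.006 (SD, n = 3) in untreated A/J, and the means of the other groups lay between 0.709 and 0.745. The Gapdh ratio was 0.294 in the first irradiated A/J array and 0.876 to 1.30 in the others. Genes of squamous epithelium had a summed normalised signal of 4135 in the third irradiated A/J array and of 5957 and 6453 in the first and the third untreated C57BL/6J arrays, against 72 to 271 in the other 15. Genes of skeletal muscle were high in the same 3 arrays, at 2414, 2285 and 1955 against 132 to 563. At 51 probe sets whose untreated C3H/HeJ and A/J arrays lay over 2 log2 units apart, the third irradiated C3H/HeJ array sat 0.447 of the way from A/J to C3H/HeJ, while the first and second sat at 0.928 and 0.958. It therefore did not match its strain label at those probe sets, and values with and without it are given below. The lung itself was plain from its alveolar genes: surfactant and other type 2 cell genes had mean log2 levels between 10.8 and 11.6 in every array.

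Few ciliated cell genes differed between irradiated and untreated lungs beyond the spread between arrays. In A/J, Foxj1, Dnah9 and Nme5 rose and Tppp3 and Rfx2 fell. In C3H/HeJ, Tppp3, Lrrc23 and Dnali1 fell and no member rose. In C57BL/6J no member passed the test. Values are quantile-normalised log2 signals, a fold change is a difference of group means on the log2(signal + 7) scale, which understates changes of dim genes, and a gene passed at an adjusted p under 0.05 (limma across all genes, two-sided, with Benjamini-Hochberg adjustment).

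Read against all genes, the members were called no more often than the rest. In A/J 15.6% of the 32 members were called in either direction, against 24% of the 12408 genes tested (15.1% called higher and 8.91% lower). In C3H/HeJ the share was 9.38% against 23.5% (12.9% higher and 10.6% lower). In C57BL/6J it was 0 of 32 against 5.35% (3% higher and 2.35% lower), and at an unadjusted p under 0.05 limma gave 1 member higher and 2 lower there. At that level 1213 of the 12408 genes were higher and 1265 lower in C57BL/6J. The median fold change of the members was 0.15 in A/J, 0.07 in C57BL/6J but -0.18 for C3H/HeJ, and the medians over all genes were 0.09, -0.01 and 0.01 in turn. Fold changes were above 0 for 22 of 32 members in A/J, 18 in C57BL/6J but only 10 for C3H/HeJ. The 95% intervals of single members were wide, with a median half-width of 0.45 log2 units against 0.33 for all genes. They nevertheless lay within a 2-fold change in either direction for 29 members in A/J, 31 in C57BL/6J, as well as 27 for C3H/HeJ.

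**Figure D1:**
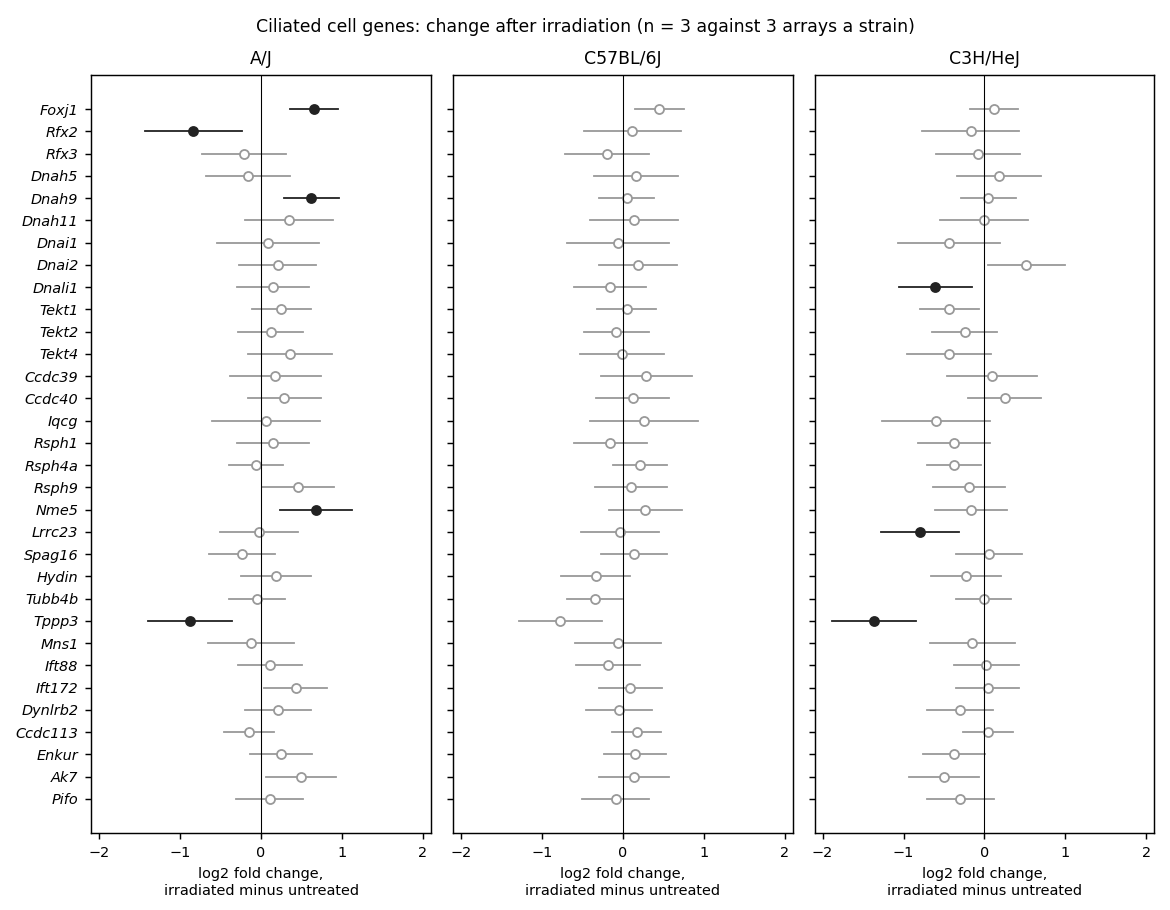
Log2 fold change, irradiated minus untreated, of the 32 tested ciliated cell genes in each strain, ordered by their place in the cilium. Points are estimates, lines are 95% intervals from the limma fit of 3 against 3 arrays, and filled points mark an adjusted p under 0.05; 5 genes are filled in A/J, none in C57BL/6J, with 3 for C3H/HeJ.

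The A/J median above 0 rested on 1 array. In the first irradiated A/J array 31 of 32 members lay above their own mean over all arrays, by a median of 0.65, and 22 members had their highest level of the series there. In the second and the third irradiated A/J arrays the medians were 0.01 and -0.07, close to the 0.04, -0.05 and 0.18 of the untreated A/J arrays. Without the first irradiated array the median fold change in A/J was -0.09 instead of 0.15, with 2 members higher and 1 lower. The split of calls also moved with scaling, from 3 higher and 2 lower to 6 higher and 1 lower with median centring and 6 higher and 0 lower without scaling. That array was also the brightest and had the lowest actin and Gapdh ratios, whose part in the result was not tested.

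In C3H/HeJ the members lay low in every irradiated array. Their median deviation was -0.41, -0.54 and -0.24 after irradiation and -0.29, -0.01 and -0.20 without it, so that only the third irradiated array reached into the untreated range. Of the 32 members, 5, 1 and 2 lay above their own mean in the irradiated arrays. All irradiated arrays lay below all untreated arrays for 11 members, where 18.9% of all genes showed that pattern, and above them for 1 member, where 21.5% did. Without the third irradiated array, the one that did not match its strain label, the median was -0.22 and 2 members were called lower. The median depended on scaling: with no scaling between arrays it was 0.37, when the median of all genes was 0.61, and with arrays centred on their median signal it was -0.012, when that of all genes was 0.24. Relative to all genes the members were lower by 0.19, 0.25 and 0.25 under the main, unscaled and centred settings.

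In C57BL/6J the irradiated arrays had median deviations of 0.01, 0.29 and 0.43 and the untreated arrays 0.10, 0.27 and 0.12, and these overlapped. Irradiated arrays lay clear of untreated ones for 2 members above and 2 below, against 11.7% and 12.5% of all genes. Without the 3 arrays high in squamous genes, 2 of which are untreated C57BL/6J arrays, the median fold change was -0.10 instead of 0.07. The corresponding counts of members in A/J were 5 above and 2 below, against 25.2% and 15.2% of all genes.

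**Figure D2:**
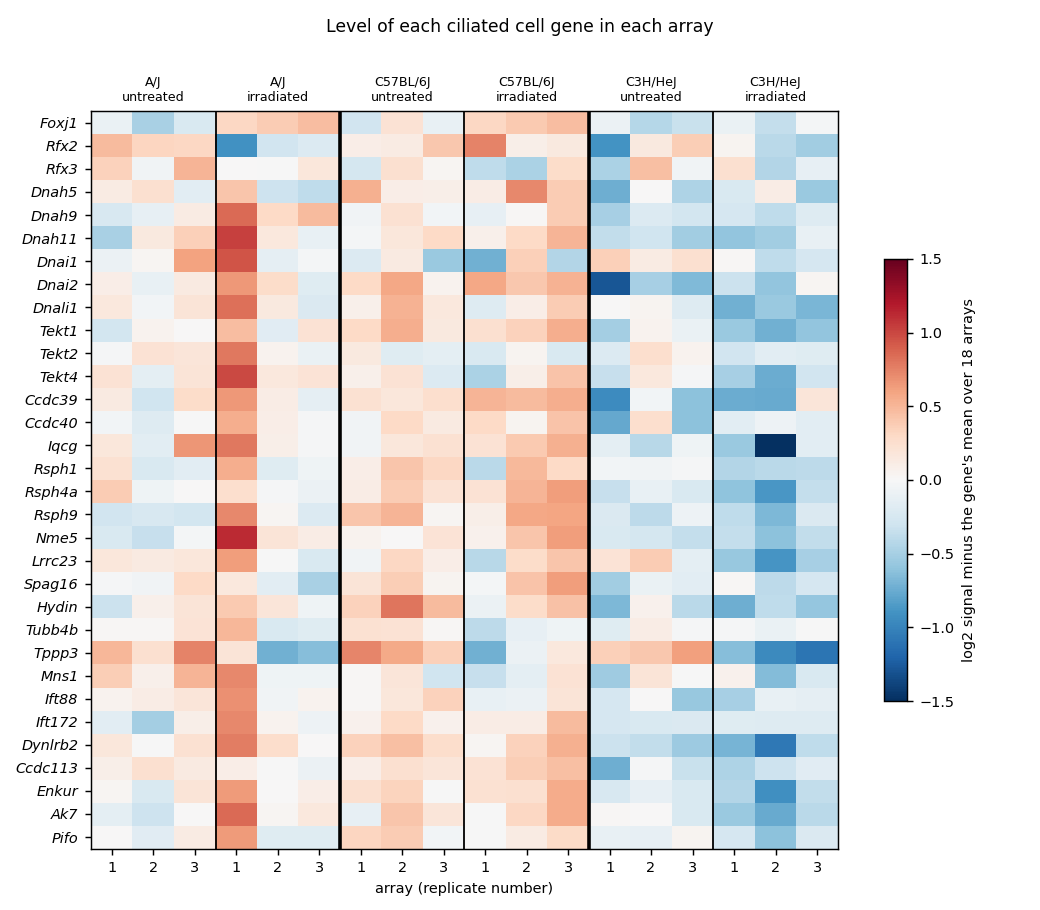
Level of each tested ciliated cell gene (rows, ordered by place in the cilium) in each array (columns, replicates 1 to 3 of the 6 groups), as log2 signal minus the gene's mean over the 18 arrays; red is higher and blue lower. The first irradiated A/J array is red in 31 of 32 rows, and Tppp3 turns from red to blue after irradiation in C3H/HeJ. C57BL/6J columns are mostly red and C3H/HeJ columns mostly blue. The first irradiated C57BL/6J column and the second untreated C3H/HeJ column are mixed.

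Foxj1 encodes the forkhead factor that commands the motile cilium programme. Its log2 signal in A/J was 7.01, 6.62 and 6.88 without treatment and 7.42, 7.48 and 7.57 after irradiation. Every irradiated array lay above every untreated one, and the third, not the bright first array, was the highest. The rise of 0.66 ± 0.14 (SE), or 1.58-fold, had an adjusted p of 0.00339 (limma), and it passed under every alternative setting and without any 1 array, with a highest adjusted p of 0.0229. Its size depended on scaling: with no scaling between arrays it was 1.19, when the median of all genes was 0.56. The actin ratio was 0.413 to 0.551 in the 3 irradiated A/J arrays and at least 0.677 in every other array. RNA quality therefore cannot be told apart from irradiation in A/J, and leaving out an array does not separate them. In C57BL/6J the Foxj1 values were 6.82, 7.32 and 6.99 untreated and 7.41, 7.50 and 7.56 irradiated. These groups did not overlap either, but the difference of 0.45 did not pass (limma adjusted p = 0.0774); without the second untreated array it was 0.59 and passed (adjusted p = 0.0269), whereas without the 3 arrays high in squamous genes, which leaves that array as the only untreated one, it was 0.17 (adjusted p = 0.845). In C3H/HeJ the values were 7.02, 6.68 and 6.77 untreated and 7.01, 6.75 and 7.07 irradiated, which overlap, with a difference of 0.12 and a 95% interval of -0.18 to 0.42.

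The RFX factors bind the X-boxes of cilia genes. Rfx2 in A/J was 5.75, 5.60 and 5.59 untreated and 4.37, 4.99 and 5.07 irradiated, without overlap. The probe set used was dim, with an irradiated mean of 4.81, under the overall median of 4.98. Rfx2 fell by 0.84 ± 0.28 (SE; limma adjusted p = 0.0412). However, a second, still dimmer probe set of the gene gave 0.33 ± 0.34 (SE), and the mean of its probe sets gave -0.25 (adjusted p = 0.536). With no scaling it was -0.65 (adjusted p = 0.147), with a pseudocount of 32 it was -0.50 (adjusted p = 0.0323), and the adjusted p was 0.0685 with no filter and 0.0556 without the 3 arrays high in squamous genes. The call was also lost without any 1 of the 3 untreated arrays (adjusted p 0.0766 to 0.111), without the first irradiated array (-0.61, adjusted p = 0.168) and without the second (-0.92, adjusted p = 0.0567). In C57BL/6J Rfx2 changed by 0.12 and in C3H/HeJ by -0.17, while Rfx3 changed by -0.21, -0.19 and -0.08 in the 3 strains in turn; none of these passed. In A/J, then, the probe sets used for Foxj1 and Rfx2 moved in opposite directions.

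Among the outer arm dyneins, the motors that set beat frequency, 1 of 5 genes passed. Dnah9, a heavy chain, was 6.07, 6.18 and 6.42 in untreated A/J and 7.16, 6.60 and 6.77 in irradiated A/J. All irradiated values were above all untreated values, with the first irradiated array the highest. The rise was 0.62 ± 0.16 (SE), 1.54-fold, with a limma adjusted p of 0.0105; without the first irradiated array it was 0.46, with an adjusted p of 0.0498, and without the first untreated array the adjusted p was 0.05, just under the threshold. With no scaling the rise was 1.10 (adjusted p = 0.0144). In C57BL/6J and C3H/HeJ its change was 0.05 in each.

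Dnah5, another outer arm heavy chain, was 5.80, 5.92 and 5.52 untreated and 6.09, 5.37 and 5.30 irradiated in A/J. In C57BL/6J it was 6.21, 5.78 and 5.77 untreated and 5.79, 6.40 and 6.07 irradiated. In C3H/HeJ it was 4.94, 5.68 and 5.21 untreated and 5.46, 5.79 and 5.13 irradiated. The groups overlapped in each strain, and the differences of -0.16, 0.17 and 0.18 did not pass (limma adjusted p 0.67, 0.772 and 0.641). Of the rest, the heavy chain Dnah11 changed by 0.35, 0.14 and -0.01 in the 3 strains in turn, the intermediate chain Dnai1 by 0.08, -0.06 and -0.44, and its partner Dnai2 by 0.20, 0.19 and 0.52. None of these passed.

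Dnali1 encodes a light intermediate chain of the inner dynein arms. Its values in C3H/HeJ were 6.79, 6.83 and 6.59 untreated and 6.07, 6.22 and 6.10 irradiated. The groups stood 0.61 ± 0.21 (SE) apart without overlap, 1.52-fold lower after irradiation (limma adjusted p = 0.0477). The call was narrow: leaving out any 1 of the 6 arrays ended it, with fold changes of -0.68 to -0.56 and adjusted p from 0.0603 to 0.118, and a second probe set of the gene gave -0.32 ± 0.35 (SE). It kept its call under 4 of 10 other alternatives. With no scaling between arrays the difference was -0.014 (adjusted p = 0.975), when the median of all genes was 0.61, and with arrays centred on their median it was -0.39 (adjusted p = 0.257). The mean of the probe sets gave -0.46 (adjusted p = 0.157). In A/J and C57BL/6J its change was 0.15 and -0.16.

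No gene of the tektins, the ruler or the nexin link passed in any strain. Tekt1, Tekt2 and Tekt4, filament proteins inside the doublets, changed by 0.25, 0.12 and 0.36 in A/J, by 0.05, -0.08 and -0.01 in C57BL/6J, and by -0.43, -0.25 and -0.44 in C3H/HeJ. Ccdc39 and Ccdc40, which together form the molecular ruler that spaces spokes and dyneins, changed by 0.18 and 0.29 in A/J, 0.29 and 0.13 in C57BL/6J and 0.09 and 0.25 in C3H/HeJ. Iqcg, a nexin link subunit, changed by 0.06, 0.27 and -0.60; its mean log2 level of 4.90 lay near the overall median of 4.98, so it was measured with little signal.

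The radial spokes carry signals from the central pair to the dyneins, and 2 of their 5 genes passed, 1 in each of 2 strains. Nme5 in A/J was 7.05, 6.94 and 7.25 untreated and 8.40, 7.48 and 7.39 irradiated. The groups did not overlap, and the first irradiated array stood far above the rest. It rose by 0.68 ± 0.21 (SE), 1.60-fold (limma adjusted p = 0.0283). The call was lost without that array (0.35, adjusted p = 0.113) and without the first (0.66, adjusted p = 0.0743) or the second (0.61, adjusted p = 0.0993) untreated array. With only the A/J arrays in the fit the adjusted p was 0.12, and with no scaling the rise was 1.23 (adjusted p = 0.00539). Nme5 changed by 0.28 in C57BL/6J and -0.17 in C3H/HeJ.

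Lrrc23 in C3H/HeJ was 7.29, 7.48 and 6.95 untreated and 6.53, 6.21 and 6.59 irradiated. All irradiated values lay below all untreated ones. It fell by 0.80 ± 0.23 (SE), 1.74-fold (limma adjusted p = 0.0195), but the difference was -0.55 with arrays centred on their median (adjusted p = 0.129) and -0.17 with no scaling between arrays (adjusted p = 0.686). The call was lost without the first (adjusted p = 0.0581) or second (-0.68, adjusted p = 0.0764) untreated array or the second irradiated array (-0.68, adjusted p = 0.0801), and kept without the third irradiated one. In A/J and C57BL/6J the change was -0.03 in each.

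The spoke head gene Rsph1 passed in no strain. In C3H/HeJ it was 7.66, 7.64 and 7.69 untreated and 7.26, 7.30 and 7.31 irradiated. Both groups were tight and did not overlap, but the spread shared over all 6 groups is wider, and the difference of -0.37 had a limma adjusted p of 0.218; with only the C3H/HeJ arrays in the fit the adjusted p was 0.0348. With no scaling between arrays the difference was 0.29. In A/J Rsph1 was 7.94, 7.48 and 7.54 untreated and 8.24, 7.53 and 7.64 irradiated, and in C57BL/6J 7.80, 8.12 and 8.02 untreated and 7.29, 8.18 and 8.00 irradiated, overlapping in both. Of the other spoke head genes, Rsph4a had differences of -0.06, 0.21 and -0.38 and Rsph9 of 0.45, 0.11 and -0.19 in the 3 strains in turn, and none passed.

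The central pair genes Spag16 and Hydin changed by -0.24 and 0.19 in A/J, 0.14 and -0.34 in C57BL/6J and 0.05 and -0.23 in C3H/HeJ, and neither passed. The ciliary tubulin gene Tubb4b changed by -0.05, -0.35 and -0.01 in the same order of strains, and Mns1, which encodes a protein inside the doublets, by -0.12, -0.06 and -0.15.

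Tppp3, which encodes a tubulin-binding protein of the TPPP family, had the largest change of any member in each strain. In C3H/HeJ it was 10.60, 10.65 and 10.86 untreated and 9.60, 9.28 and 9.14 irradiated. The highest irradiated value, 9.60, lay well below the lowest untreated value, 10.60. It fell by 1.36 ± 0.24 (SE), 2.57-fold (limma adjusted p = 0.000939), and passed without any 1 array and under every alternative except no scaling (-0.63, adjusted p = 0.137). Without the third irradiated array, whose strain is in doubt, it fell by 1.26. In A/J it was 10.73, 10.48 and 10.98 untreated and 10.44, 9.52 and 9.60 irradiated. The first irradiated array all but touched the lowest untreated value. The fall of 0.88 ± 0.24 (SE), 1.84-fold (limma adjusted p = 0.0155), lost its call without the third untreated array (-0.75, adjusted p = 0.0657), without the second (-0.71, adjusted p = 0.0724) or the third (-0.75, adjusted p = 0.059) irradiated array and without the 3 arrays high in squamous genes (-0.75, adjusted p = 0.0755). It was also lost with arrays centred on their median (-0.54, adjusted p = 0.134), with no scaling (-0.31, adjusted p = 0.476) and with only the A/J arrays in the fit (adjusted p = 0.0552), while without the first irradiated array it was -1.18.

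In C57BL/6J Tppp3 was 10.97, 10.81 and 10.59 untreated and 9.52, 10.15 and 10.39 irradiated. Again the groups did not overlap, but the difference of -0.77 ± 0.24 (SE) did not pass (limma adjusted p = 0.0795); it did with an intensity trend in the fit (adjusted p = 0.0466) or without the third irradiated array (-0.96, adjusted p = 0.0426). Tppp3 was thus lower in all 9 irradiated arrays than in the untreated arrays of the same strain. Its change was not shown to differ between strains: the C3H/HeJ change minus the A/J change was -0.48, with a 95% interval of -1.21 to 0.25 (limma adjusted p = 0.487).

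**Figure D3:**
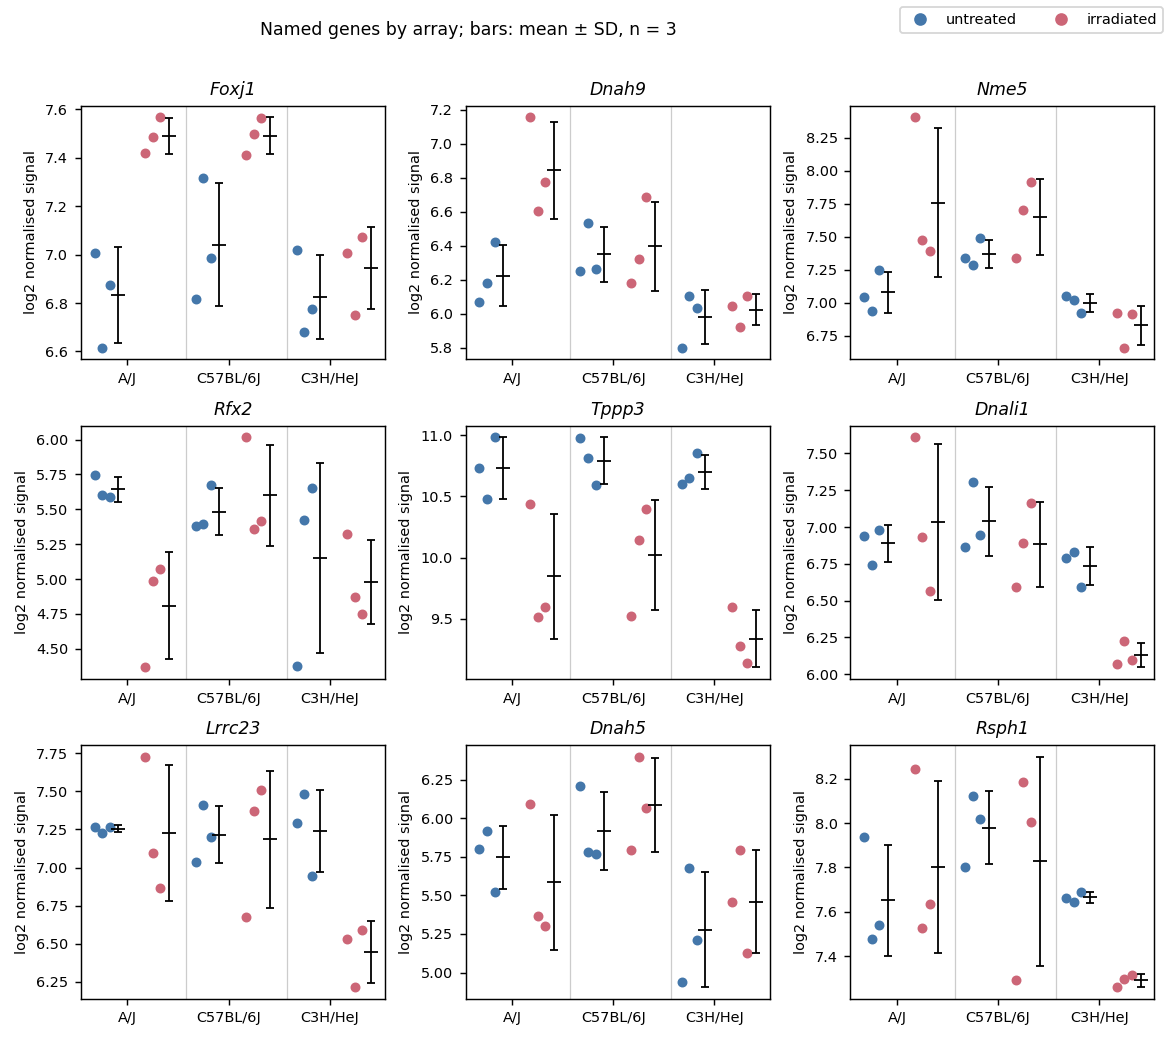
Log2 normalised signal of 9 ciliated cell genes in every array, blue for untreated and red for irradiated, with the mean and SD of each group of 3 in black; vertical axes differ and do not start at 0. Tppp3 is lower in all 9 irradiated arrays than in the untreated arrays of its strain, Foxj1 is higher in irradiated A/J and C57BL/6J, and the first irradiated A/J array is the highest A/J value of Dnah9, Nme5, Dnali1, Lrrc23, Dnah5 and Rsph1.

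Genes of intraflagellar transport and of the remaining ciliary proteins did not pass in any strain. Ift88 and Ift172, subunits of the anterograde train, changed by 0.11 and 0.43 in A/J, -0.18 and 0.09 in C57BL/6J and 0.02 and 0.04 in C3H/HeJ, and the dynein light chain Dynlrb2 by 0.21, -0.05 and -0.31. Ccdc113, Enkur, Ak7 (an adenylate kinase of the axoneme) and Pifo changed by -0.15, 0.25, 0.49 and 0.11 in A/J, by 0.17, 0.15, 0.13 and -0.09 in C57BL/6J and by 0.05, -0.38, -0.50 and -0.30 in C3H/HeJ.

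Whether the response differed between strains was tested for each gene as a difference of 2 changes. No member passed for any pair of strains (limma, adjusted p under 0.05), nor did any with 1 array left out. For C3H/HeJ against A/J, 10 members had an unadjusted p under 0.05, all lower in C3H/HeJ, the median difference was -0.41, and the smallest adjusted p was 0.0972, for Ak7, whose difference was -0.995 with a 95% interval of -1.61 to -0.38. These values include the first irradiated A/J array, on which the A/J median rested, and the third irradiated C3H/HeJ array, whose strain is in doubt. For C57BL/6J against C3H/HeJ 3 members had an unadjusted p under 0.05 with a median difference of 0.22 over the 32, and for C57BL/6J against A/J 2 did, with a median of -0.20. Over all genes the calls were 1.06%, 1.61% and 5.38% for these pairs. An unadjusted p under 0.05 (limma) was found for 2219, 2025 and 2615 of the 12408 genes. The median differences over all genes were -0.06, -0.03 and -0.10 in the same order. The intervals were wide: for C3H/HeJ against A/J, 18 of 32 reached beyond a 2-fold difference, so that differences of that size are not bounded by these data for those genes.

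Levels also differed between strains without treatment. Among untreated arrays 26 of 32 members had their lowest mean in C3H/HeJ and 24 had their highest in C57BL/6J, and after irradiation 28 were lowest in C3H/HeJ. The shares of all genes with these orders of strains were not counted. Untreated C57BL/6J exceeded untreated C3H/HeJ for 29 of 32 members, with a median of 0.37. Over all genes it did so for 47.4%, with a median of -0.02. Of the members 4 passed, against 6% of all genes called higher and 4.85% lower. Untreated C3H/HeJ against A/J gave 1 member lower, against 2.15% of all genes called lower, and untreated C57BL/6J against A/J gave none, against 10.4% in either direction, with 3 at an unadjusted p under 0.05. For that last pair 2937 of the 12408 genes had an unadjusted p under 0.05 (limma).

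Dnai2 was 6.26, 6.54 and 6.01 in untreated C57BL/6J, 4.67, 5.46 and 5.30 in C3H/HeJ and 6.06, 5.84 and 6.10 in A/J. These values rest on 1 probe set, since the other of the gene did not exceed the overall median in any array. The first C3H/HeJ value, 4.67, lay under that median, which was 4.98. C3H/HeJ lay below both other strains in all arrays. C57BL/6J exceeded it by 1.13 ± 0.23 (SE), 2.18-fold (limma adjusted p = 0.00433), and it lay 0.86 ± 0.23 (SE) below A/J (adjusted p = 0.0417). The latter call was lost without any 1 A/J array (adjusted p 0.0741 to 0.135) and without the first (-0.63, adjusted p = 0.184) or the third (adjusted p = 0.0633) C3H/HeJ array. Hydin, Dynlrb2 and Ccdc113 were also higher in untreated C57BL/6J than in C3H/HeJ, by 0.88, 0.76 and 0.53 (limma adjusted p = 0.0104, 0.0176 and 0.0255). Dynlrb2 was 9.75, 9.87 and 9.67 against 9.09, 9.04 and 8.87, the clearest separation of the 3 genes. Hydin lost its call without the first C3H/HeJ array (adjusted p = 0.0564), Dynlrb2 without the second C57BL/6J (adjusted p = 0.0591) or the third C3H/HeJ (adjusted p = 0.0637) array, and Ccdc113 without any of 4 arrays (adjusted p 0.0577 to 0.119). Under the 10 alternatives other than leaving out 1 array, Hydin and Dynlrb2 kept their calls in 8 each, Ccdc113 in 6 and Dnai2 against A/J in 5. With no scaling the calls of Hydin (1.05, adjusted p = 0.0644), Dynlrb2 (1.07, adjusted p = 0.0542) and Ccdc113 (0.71, adjusted p = 0.398) and that of Dnai2 against A/J (-1.12, adjusted p = 0.0557) were lost. Without the 3 arrays high in squamous genes those of Dynlrb2 (0.86, adjusted p = 0.105) and Ccdc113 (0.61, adjusted p = 0.177) were lost. A probe set can also bind less well where a strain carries a sequence difference, and the part of this in the strain differences was not tested.

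Other genes of cilia, 151 in 5 lists of which 116 were tested, were counted in the same way. In A/J 17 rose and none fell, with a median of 0.21; in C57BL/6J 1 rose and none fell, with a median of 0.10; in C3H/HeJ 1 rose and 9 fell, with a median of -0.13. The A/J count dropped to 5 without the first irradiated array, and the C3H/HeJ count of falls to 4 without the second irradiated array, while it was 9 without the third. Beside the background calls given above, 17 of 116 is near the 15.1% of all genes called higher in A/J, and 9 of 116 is no more than the 10.6% called lower in C3H/HeJ.

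By list, in A/J, 1 of 5 regulators rose (Ccno, 0.49, which acts in making the many basal bodies), 2 of 21 dynein genes (Dnah12, an inner arm heavy chain, 0.86, and Clxn, 0.53) and 1 of 18 spoke, central pair and nexin genes (Cfap54, a central pair protein, 0.57). Of 47 doublet and axoneme-associated genes 8 rose, led by Cdhr4 (0.88), Cetn4 (0.77), Tmem212 (0.67) and Fhad1 (0.63). Of 25 transport genes shared with primary cilia 5 rose, led by Dync2h1, the motor that returns the train to the cell body (0.64), with Wdr19 (0.56) and Ift140 (0.51), of the retrograde train. In C57BL/6J Dnah12 rose, by 0.57.

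In C3H/HeJ the falls were spread over all 5 lists. Myb, a factor acting early in multiciliated cell formation, fell by 0.72, and Zmynd10, a dynein assembly factor, by 0.74. Iqca1 and Spef1, the latter a central pair protein, fell by 0.69 and 0.64. Dcdc2a fell by 1.16, Morn3 by 0.79 and Cfap20 by 0.44, and Capsl rose by 0.50. Dcdc2a and Morn3 were dim, with mean log2 levels of 5.03 and 4.71 untreated and 3.87 and 3.93 irradiated. The overall median was 4.98. Of the transport genes Ift20 fell by 0.59 and Ttc21b by 0.46.

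The ciliated cell genes varied together from array to array. Pearson's r between 2 members, computed on deviations from the group means of the 18 arrays so that strain and irradiation do not enter, had a median of 0.54 over 496 pairs, and 56.5% of pairs exceeded 0.5. Between a member and any other gene tested the median was 0.06 and 9.29% of pairs exceeded 0.5. Dynlrb2, Enkur and Ak7 had the highest median r with the other members over all 18 arrays, at 0.75, 0.74 and 0.72. The lowest were the transcription factors Rfx2 (0.02) and Rfx3 (0.22) with Dnai1 (0.22), and Foxj1 was at 0.37; on deviations from group means Foxj1 was at 0.13 and Rfx2 at -0.28. Tppp3 followed the others on deviations from group means (median r 0.61) and less over all arrays (0.38), in which its fall after irradiation enters. These are descriptions over 18 arrays that share brightness and RNA quality within an array, with the first irradiated A/J array raising 31 members together. Of the 30 non-members most like the members by median r, 8 were among the 116 tested genes of the cilia lists, including Dnaaf1 (0.72) and Pierce1 (0.72), and the first was Clic6 (0.78).

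Markers of other airway and lung cells were read in the same arrays. Of 18 club and secretory cell genes tested, 6 fell and 1 rose in A/J, 3 fell in C57BL/6J and 9 fell and 2 rose in C3H/HeJ, with medians of -0.07, -0.36 and -0.50. The summed normalised signal of that list was 38217 to 41253 in untreated and 35214 to 41232 in irradiated A/J, 40546 to 43680 and 32858 to 37510 in C57BL/6J, and 36757 to 39236 and 26594 to 31464 in C3H/HeJ. It did not overlap between untreated and irradiated arrays in C57BL/6J or C3H/HeJ. Lypd2 fell by 0.94, 1.69 and 1.63 in the 3 strains in turn and Cckar by 0.65, 0.71 and 1.05, whereas Reg3g, an antibacterial lectin, rose by 1.39 in A/J and 2.03 in C3H/HeJ. In C3H/HeJ the type 2 cell genes Slc34a2, Etv5 and Abca3 fell by 0.79, 0.75 and 0.67, 3 of 8 tested, and the type 1 genes Rtkn2 and Akap5 by 0.62 and 0.42, 2 of 9. In A/J the type 1 genes Clic5 and Akap5 fell by 0.49 and 0.37, and no type 2 gene passed. Of 8 general epithelial genes, Krt18 and Krt8 rose in C3H/HeJ by 0.97 and 0.94 and Esrp1 rose in A/J by 0.46. Of the 2 neuroendocrine genes tested, Uchl1 rose in A/J by 0.77 and in C57BL/6J by 0.66, and none of 3 airway basal cell genes passed in any strain. Uchl1 was dim in A/J, with mean log2 levels of 3.86 untreated and 4.64 irradiated, both under the overall median of 4.98. The part of the other airway and lung cells in the values of the ciliated cell genes was not tested.

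**Figure D4:**
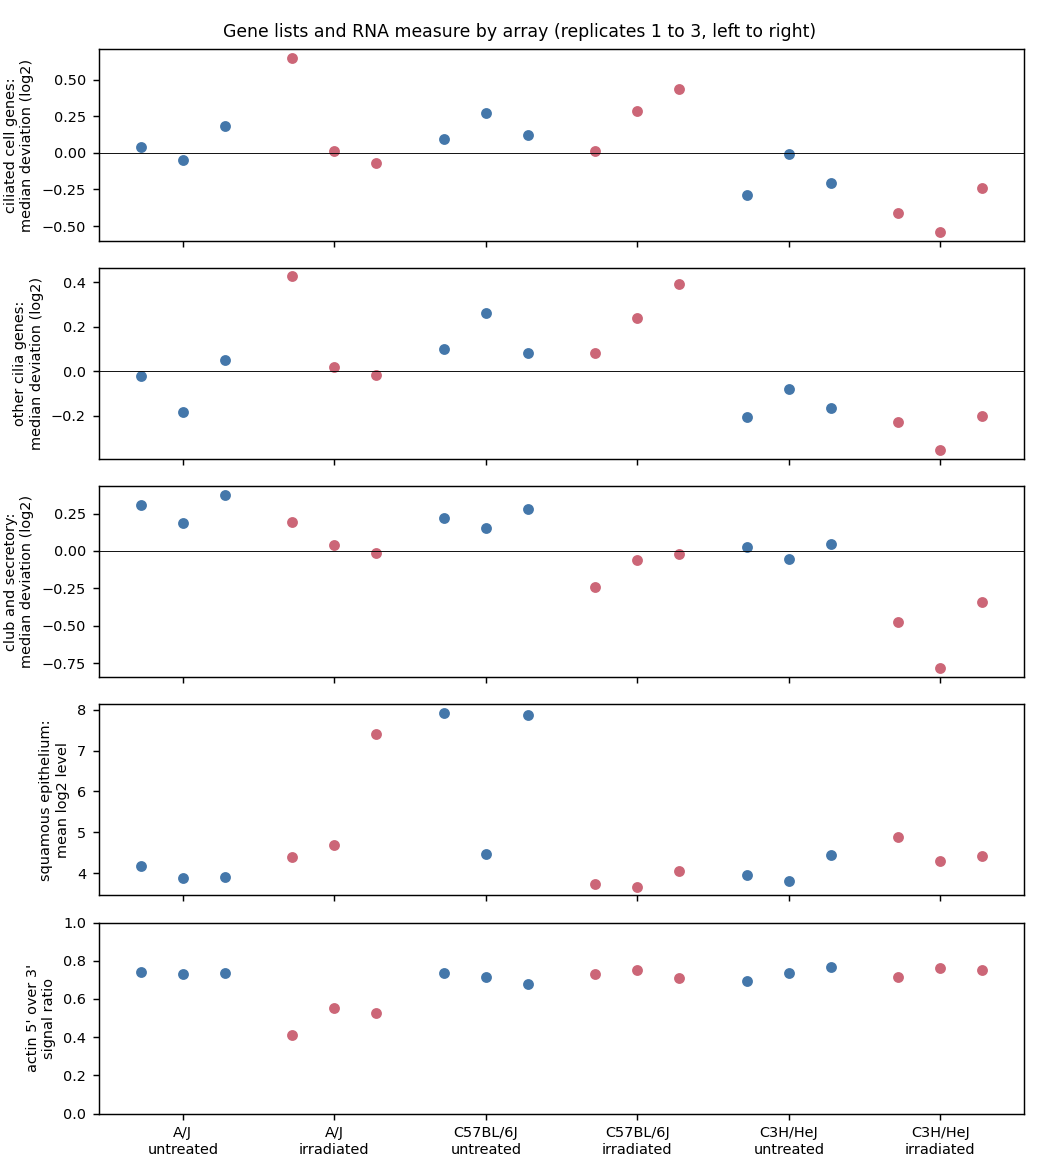
The 5 measures of each array are plotted, blue for untreated and red for irradiated, replicates 1 to 3 from left to right in each group: the median deviation (log2) of 32 ciliated cell genes, of 116 other cilia genes and of 18 club and secretory cell genes from each gene's mean over all arrays, the mean log2 level of squamous epithelium genes, and the actin 5′ over 3′ ratio. The first irradiated A/J array is highest for ciliated cell genes (0.65) and lowest for the actin ratio (0.413), and the club and secretory genes are lowest in irradiated C3H/HeJ (-0.79 to -0.34).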

How the data were processed

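Lung RNA had been hybridised to 18 single-colour arrays of 45101 probe sets. The deposited values are linear signal intensity made with MAS5, per the submitters' processing notes; the scaling target and the build are not given in the sources used here. The arrays differed in brightness. For this report log2(signal + 7) was quantile-normalised, and 25735 probe sets that exceeded the overall median on 3 or more of 18 arrays were kept. A gene was represented by its brightest kept probe set among those naming it alone (34958 of 35890 annotated probe sets name 1 gene, 932 several). Limma 3.58.1 (R 4.3.3) fitted the 6 group means over all arrays (12 residual degrees of freedom), with p-values adjusted over 12408 genes. The fit was also run on simulated data with independent noise for each gene. That run held no differences shared within an array and cannot show how the fit handles them. The number of arrays limits the precision.

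The members and the gene lists were chosen with earlier results of these data known. Values in every array are given for Foxj1, Dnah5, Rsph1 and Tppp3 whatever their result and, in each strain, for the called members of largest change whose arrays do not overlap. Other cilia genes are named up to 4 per list and strain, and marker genes up to 3 per list. Array values of the genes that differed between untreated strains were added after their results were seen. Alternatives were no scaling, median centring, pseudocounts of 1 and 32, no filter, the mean of probe sets, a fit of only the groups compared, a replicate block, an intensity trend, leaving out 3 arrays high in squamous genes, and leaving out each array. No 2 arrays held identical values. Promoter letters came from RefSeq windows.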

Additional observations from a re-analysis of the deposited data

Results flagged for a closer look

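Among 116 other cilia genes, 2 differed in their response between strains by the test of the difference itself, both for C3H/HeJ against A/J, where 1.06% of all genes were called. Dnah12, an inner arm dynein heavy chain, changed by 0.86 and 0.57 in A/J and C57BL/6J but by -0.15 in C3H/HeJ, and the C3H/HeJ change minus the A/J change was -1.01 ± 0.21 (SE; limma adjusted p = 0.0329). Its irradiated A/J values of 6.79, 6.42 and 6.31 all lay above the untreated 5.71, 5.54 and 5.70, whereas in C3H/HeJ 5.25, 5.64 and 5.63 irradiated overlapped 5.57, 5.68 and 5.74 untreated. Tmem212, which encodes a membrane protein, changed by 0.67, 0.44 and -0.32 in the same order, a difference of -0.99 ± 0.21 (SE; limma adjusted p = 0.0334). Its values were 8.04, 7.62 and 7.91 untreated and 8.83, 8.40 and 8.34 irradiated in A/J, and 8.07, 8.17 and 8.21 untreated and 7.78, 7.69 and 8.01 irradiated in C3H/HeJ, so that the groups separated in opposite directions. For C57BL/6J against C3H/HeJ the differences of 0.73 and 0.76 did not pass (adjusted p = 0.096 and 0.0746). Both calls were narrow. Without the first irradiated A/J array, which held the highest A/J value of both genes, the differences were -0.86 (adjusted p = 0.0506) and -0.83 (adjusted p = 0.0494); without the third irradiated C3H/HeJ array, whose strain is in doubt, they were -1.07 (adjusted p = 0.0307) and -1.08 (adjusted p = 0.0236). Leaving out 1 array at a time, Dnah12 kept its call in 3 of 12 fits and Tmem212 in 5 of 12, and under the other alternatives in 7 and 6 of 10, with adjusted p of 0.0697 and 0.132 with arrays centred on their median and 0.0652 for both with no filter. With no scaling the differences were -0.98 and -0.86, with an adjusted p of 1 for both. These checks were chosen after seeing the data. Dnah12 and Tmem212 are no members of the list of 35, and no member passed this test. Arrays that stood apart are described above. With groups of 3 arrays, no search gene by gene for single outlying arrays was made.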

How the results depend on the processing

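Under alternatives other than leaving out 1 array, 210 counts and medians were recomputed. Of these, 167 stayed within 1.5 times the count or 1 SD of the median. That SD is the spread between replicate arrays of the members' median level, 0.29, 0.16 and 0.15 in the 3 strains in turn. In A/J it includes the first irradiated array. The A/J median of -0.09 without that array therefore counts as unchanged from 0.15. Of 240 values of named genes, 197 kept direction and side of the threshold. Leaving out 1 array at a time, 106 of 144 and 104 of 156 did. Without scaling the members were 6 higher and 0 lower in A/J and 1 higher and 0 lower in C3H/HeJ, with medians of 0.65 and 0.37; the other cilia genes were 26 higher in A/J, 0 in C57BL/6J, and 4 higher and 1 lower in C3H/HeJ; untreated members that differed fell to 0 (C3H/HeJ against A/J) and 1 (C57BL/6J against C3H/HeJ). Dnah5 in A/J became 0.19 and Rsph1 in C3H/HeJ 0.29. With median centring the members were 6 higher and 1 lower in A/J and 1 lower in C3H/HeJ (median -0.012), the other cilia genes 37 higher in A/J, 0 in C57BL/6J, and 3 higher and 3 lower in C3H/HeJ, and untreated C3H/HeJ against A/J gave 0. Over all genes the split in A/J was 1874 higher to 1105 lower, 2312 to 144 without scaling and 4135 to 536 with median centring; in C3H/HeJ it was 1597 to 1319, 3195 to 71 and 2960 to 467.

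Members lower in A/J numbered 1 with the mean of probe sets, with no filter, with only the groups compared and with the replicate block, which moved no other count beyond 1.5 times, and 0 without the 3 arrays high in squamous genes. Under the block the calls of Rfx2 in A/J, Dnali1 in C3H/HeJ and Dnai2 between untreated C3H/HeJ and A/J were lost (adjusted p = 0.0561, 0.0659 and 0.0672). Arrays share only a number: same-numbered untreated and irradiated arrays deviated with correlations of -0.084 to 0.096 within the strains. Without the 3 arrays high in squamous genes the C57BL/6J median was -0.10, its other cilia genes numbered 0 higher, and 2 members differed between untreated C57BL/6J and C3H/HeJ. Other cilia genes higher in A/J were 10 with no filter and 9 with only the groups compared; in C57BL/6J they were 2 with an intensity trend, the mean of probe sets or a pseudocount of 32, and 0 with no filter or only the groups compared; in C3H/HeJ they were 2 with the mean of probe sets and 0 with only the groups compared. An intensity trend gave 1 member lower in C57BL/6J. With only the groups compared 5 members were lower in C3H/HeJ and 1 differed between untreated C57BL/6J and A/J. Untreated C3H/HeJ against A/J gave 2 with the mean of probe sets and 0 with no filter. The cause of these shifts was not tested.

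Leaving out 1 array gave 0 to 1 members lower and 2 to 5 higher in A/J (median -0.09 to 0.27), 0 to 1 lower and 0 to 1 higher in C57BL/6J (-0.02 to 0.15), and 1 to 2 lower and 0 to 1 higher in C3H/HeJ (-0.32 to -0.09). Other cilia genes were 0 to 1 lower and 5 to 21 higher in A/J, 0 lower and 0 to 2 higher in C57BL/6J, and 4 to 9 lower and 0 to 2 higher in C3H/HeJ. Members that differed between untreated strains numbered 0 to 2 for C3H/HeJ against A/J and 2 to 7 for C57BL/6J against C3H/HeJ. Rsph1 turned to -0.070 in A/J without the first irradiated array and ranged from -0.33 to 0.11 in C57BL/6J. Groups of 3 arrays and dim probe sets limit what could be detected.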
